A study of Mus musculus with 24 samples.

Results

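Histone H3 acetylated at lysine 27 (H3K27ac) was followed across 4 h of lipopolysaccharide (LPS) in macrophages by chromatin immunoprecipitation and sequencing (ChIP-seq). The members are the 4 H3K27ac peak lists among the 24 libraries of the series, chosen by antibody and treatment from the sample labels, and they hold 121611 of the 756484 peaks in all lists. Each list was compared with the other treatment of its own vector. A peak was called gained when it was in the LPS list and shared no base pair with an untreated peak, lost when it was in the untreated list and shared none with an LPS peak, and kept otherwise.

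The cells were mouse bone marrow-derived macrophages of the FVB/Hsd strain, that is, macrophages derived in culture from marrow cells, taken at day 7 of differentiation. All had been infected with a retrovirus made in Phoenix-ECO packaging cells and selected with puromycin. The virus carried the empty LMP vector, the control for this antibody, or the sh1137 hairpin against Wdr82 (shWdr82). The untreated groups had no LPS and the treated groups had 10 ng/ml for 4 h, so the 4 groups were empty vector untreated, empty vector with LPS, shWdr82 untreated and shWdr82 with LPS. Each group had 1 library and a single hairpin was used.

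LPS is a component of the outer membrane of Gram-negative bacteria and is sensed by macrophages through the receptor TLR4, which switches on inflammatory genes through factors such as NF-kappaB. H3K27ac is deposited by the acetyltransferases p300 and CBP at active promoters and active enhancers, and wide stretches of it are found around strongly expressed genes. H3K4me3 marks promoters and H3K4me1 marks enhancers, including enhancers that carry no acetylation. WDR82 is a subunit of SET1 histone methyltransferase complexes and of a complex with the phosphatase PP1 and PNUTS that acts at the end of transcription.

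As each group is a single library, the spread between replicates is unknown, nothing was tested, and no difference below has a replicate check. Shares are given with exact (Clopper-Pearson) 95% intervals, which cover counting error only. The sources used here give neither read depth nor an input library. Peak number and peak width also follow depth and enrichment, and the part these played in the results was not tested. The peak score is the authors' own value and was at least 50 in every list, with many peaks at a ceiling near 3100. The lists do not measure Wdr82 itself, so the knockdown cannot be checked in them. Positions are on mm9, and no gene names were joined to them.

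More than 1 in 4 H3K27ac peaks after LPS lay where the untreated list had none, and a like share of untreated peaks had no counterpart after LPS. In empty vector cells 8379 of 28986 LPS peaks were gained, 28.9% (28.4 to 29.4%), and 9934 of 32486 untreated peaks were lost, 30.6% (30.1 to 31.1%). In shWdr82 cells 7589 of 28462 LPS peaks were gained, 26.7% (26.2 to 27.2%), and 10316 of 31677 untreated peaks were lost, 32.6% (32.1 to 33.1%). These shares are also the background over all peaks of each comparison. In both vectors the LPS list was thus shorter than the untreated one.

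**Figure D1:**
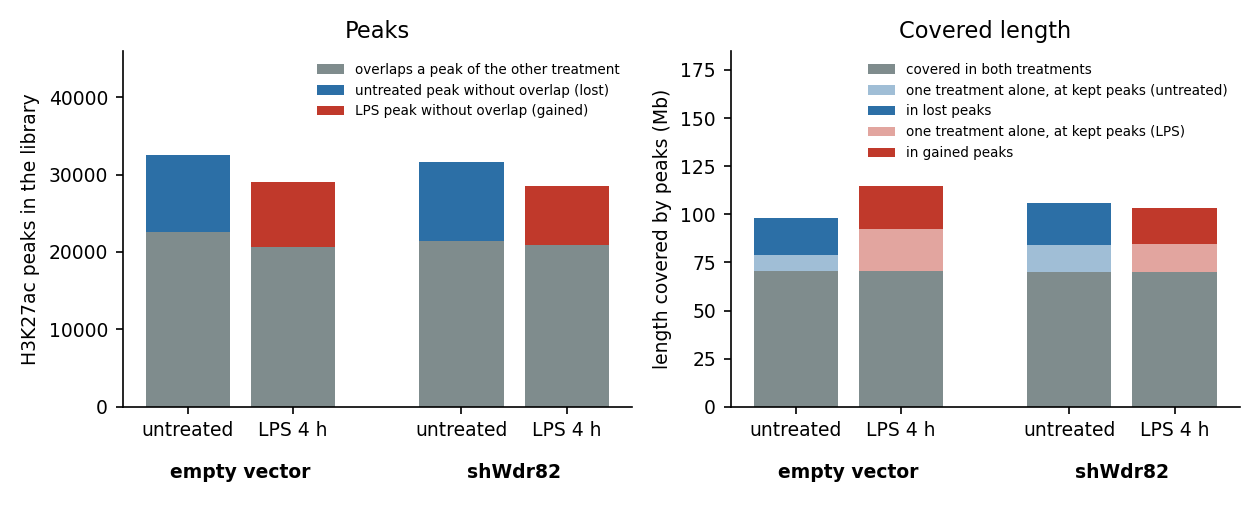
Left, number of H3K27ac peaks in each of the 4 libraries, split into peaks that overlap the other treatment of the same vector and peaks that do not. Right, the length in Mb covered by peaks, split the same way, with the light shade for bases covered in 1 treatment at kept peaks. The LPS bar is lower than its untreated neighbour in number for both vectors, and higher in covered length for the empty vector alone (115 against 98.4 Mb).

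Gained and lost peaks were weaker and narrower than kept ones, and gained peaks included more wide ones than lost peaks did. The median score was 150 in gained peaks of the empty vector and 144 in those of shWdr82, against 636 and 526 in kept LPS peaks. Lost peaks had median scores of 145 and 157, against 953 and 1172 in kept untreated peaks. The share gained fell from 65.9% of empty vector LPS peaks under 1000 bp to 7.71% of those of 10000 bp or more, and the share lost fell from 57.4% to 2.66% over the same widths. In shWdr82 cells the share gained fell from 61.3% to 7.32% and the share lost from 64.1% to 1.81%. The calling rule itself favours such a fall, since a wide peak has more room to share a base pair with the other list. A weak peak can also be missing from the other list because its signal there was below the caller's threshold. These shares and scores therefore describe the calls, and the part that LPS played in them was not tested.

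The median width was 2049 bp for gained and 1661 bp for lost peaks of the empty vector, and 1960 and 1830 bp in shWdr82. Over all peaks it was 2748 bp with LPS and 2229 bp untreated in the empty vector, and 2573 and 2418 bp in shWdr82. The whole lists thus differed in the same direction, so the gap in medians is not particular to gained and lost peaks. Gained peaks of 10000 bp or more numbered 134 in the empty vector and 99 in shWdr82, against 25 and 21 lost peaks of that width. The LPS lists held 1737 and 1352 peaks of that width in all, and the untreated lists 941 and 1162. The widest gained peaks spanned 44615 and 43908 bp, and the widest lost peaks 22141 and 25247 bp. At the score ceiling of 3100 or more there were 333 gained and 133 lost peaks in the empty vector, and 235 and 138 in shWdr82. These were 7.89% of 4219 LPS and 2.58% of 5156 untreated peaks at the ceiling in the empty vector. In shWdr82 they were 6.79% of 3462 and 2.45% of 5632. The excess of wide and top-scoring peaks on the gained side was therefore present in both vectors, although lost peaks outnumbered gained ones in both. With all 4 lists cut to an equal number of top-scoring peaks, the gained share was the larger one, 31.4% against 26.4% lost in the empty vector and 29.0% against 28.2% in shWdr82. This cut to 28462 peaks fell mainly on the untreated lists, which held 32486 and 31677. The shWdr82 LPS list was left whole, so its gained share could not fall. The turn in order is thus no separate evidence of more gains than losses.

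**Figure D2:**
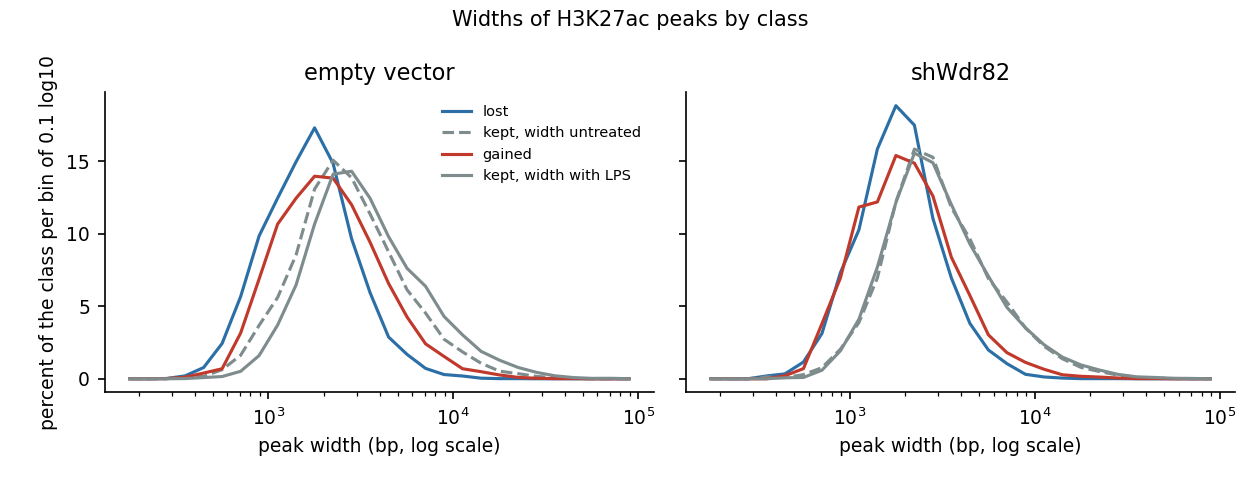
Width distribution of gained, lost and kept H3K27ac peaks in each vector, as the percent of a class in each bin of 0.1 on the log10 scale of width in bp. Lost peaks sit lowest, gained peaks extend further to the right, and kept peaks are widest, with their LPS curve to the right of the untreated one in the empty vector (medians of 3083 and 2572 bp) and nearly on it in shWdr82 (2821 and 2812 bp).

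The bases covered by both treatments came to 70.3 Mb in the empty vector and 70.0 Mb in shWdr82. In the empty vector LPS peaks covered a further 44.5 Mb, of which 22.5 Mb lay in gained peaks and 22.0 Mb at the flanks of kept peaks or between them. The untreated peaks of that vector covered a further 28.0 Mb, 19.3 Mb in lost peaks and 8.72 Mb at kept ones. In shWdr82 the LPS peaks covered a further 33.5 Mb, 19.0 Mb in gained peaks and 14.5 Mb at kept ones, against 35.9 Mb covered in untreated cells alone, 21.9 and 13.9 Mb. The covered length with LPS was thus 16.7% higher than untreated in the empty vector and differed by -2.20% in shWdr82. The vectors differed most at kept peaks, and this difference between 2 pairs of libraries was not tested.

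Wide LPS peaks also joined untreated peaks that had been called separately. In the empty vector 2192 LPS peaks overlapped 2 or more untreated peaks, and 707 untreated peaks overlapped 2 or more LPS peaks. In shWdr82 these counts were 1388 and 1079. A single LPS peak took in up to 12 untreated peaks in the empty vector and up to 8 in shWdr82.

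The widths of kept peaks were compared where 1 untreated peak overlapped 1 LPS peak. In the empty vector the median log2 ratio of LPS to untreated width was 0.09 over 17155 pairs, with a standard deviation (SD) of 0.021 between the medians of the 20 chromosomes, and 20 of 20 chromosome medians were above 0. In shWdr82 it was -0.04 over 17426 pairs, with an SD of 0.026 between chromosomes, and 2 of 20 medians were above 0. The sign depended on the untreated width, which also enters the ratio. Peaks under 2000 bp untreated had medians of 0.28 in the empty vector and 0.14 in shWdr82, above 0 on 20 of 20 chromosomes in each, and peaks of 5000 bp or more had -0.07 and -0.22, above 0 on 0 of 20 in each. From 2000 to 5000 bp the medians were 0.04 and -0.06. Chromosomes of 1 library share its depth, so this evenness is a description and no measure of error between cultures.

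Peaks with large width changes were more often widened than narrowed in the empty vector and about equally often in shWdr82. At least 2-fold widening was seen in 1809 pairs (10.5%) and 2-fold narrowing in 576 (3.36%) in the empty vector. In shWdr82 1175 pairs (6.74%) were widened and 1140 (6.54%) narrowed. Peaks without H3K4me3 in either treatment changed width more often than peaks with it in both, with 14.9% against 5.67% widened and 5.18% against 1.39% narrowed in the empty vector. In shWdr82 the same shares were 9.92% against 3.35% widened and 10.2% against 2.63% narrowed. In both vectors, 2-fold changes of called width were thus less frequent at peaks that overlapped H3K4me3 in both treatments. These sets of peaks were not matched for score, and the part that peak strength played was not tested.

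Width changes ran parallel in the 2 vectors. At the 13066 places with exactly 1 peak in each of the 4 libraries, the log2 width ratios of the vectors had a Pearson correlation of 0.80 and a Spearman correlation of 0.73. Points are regions along 1 genome, and all ratios of a vector come from the same pair of libraries. Widening of at least 2-fold was seen in both vectors at 529 regions, which are 48.8% of the 1083 in the empty vector and 83.6% of the 633 in shWdr82. Narrowing was shared at 224 regions, which are 70.0% of the 320 in the empty vector and 36.7% of the 611 in shWdr82. Opposite changes of that size were found at 3 regions. The median difference between the log2 ratios (empty vector minus shWdr82) was 0.15.

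**Figure D3:**
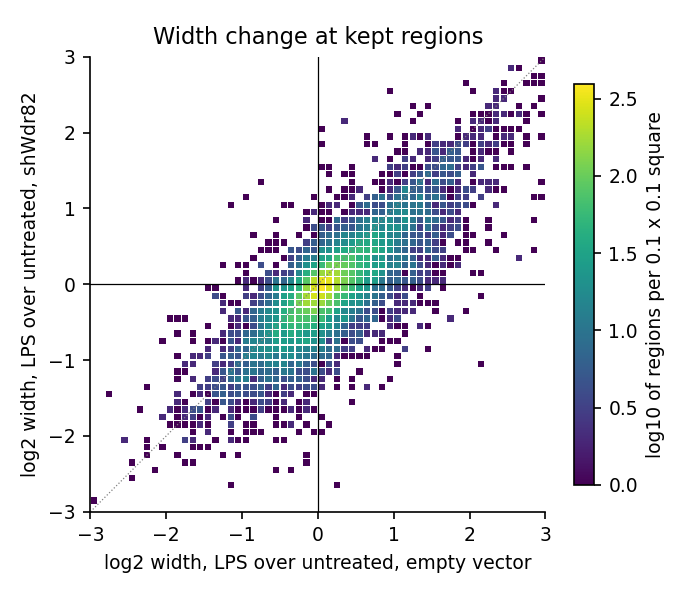
Log2 ratio of LPS to untreated peak width in the empty vector (horizontal) and in shWdr82 (vertical) at the 13066 regions with 1 peak in each library, with colour for the log10 number of regions in each square. The cloud runs along the diagonal and its bulk lies slightly below it, with 529 regions widened at least 2-fold in both vectors at the upper right and 224 narrowed in both at the lower left. Regions beyond 3 in either direction fall outside the axes.

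All H3K27ac peaks of the 4 libraries were then merged where they overlapped, which gave 39645 regions. Of these 17429 (44.0%) had a peak in all 4 libraries. A peak in both LPS libraries and neither untreated one was found in 4933 regions (12.4%), here called gained in both vectors. A peak in both untreated libraries and neither LPS one was found in 6272 regions (15.8%), called lost in both. The 2 patterns that cross treatment and vector held 39 and 78 regions, and the 2 patterns that follow the vector alone held 153 and 181. The empty vector and shWdr82 comparisons share no library.

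Regions gained in both vectors were fewer than those lost in both, and wider. The order of the counts turned to 5452 gained and 4761 lost with lists cut to equal length, a cut that fell mainly on the untreated lists. In the full lists the median width was 2722 bp for gained and 2159 bp for lost regions. Of the gained regions 129 spanned 10000 bp or more, against 21 lost ones. Both of their scores reached 1000 in 627 gained and 379 lost regions, and 3100 in 175 and 44. Regions held by a single library had low scores: their median was 75.8 for the 2278 regions of the empty vector LPS library alone and 78.0 for the 2310 of the shWdr82 untreated library alone.

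Most gains and losses in 1 vector were found in the other, and the shares were higher among regions with a score of at least 300. Of 7791 regions gained in the empty vector, 63.3% were gained in shWdr82, 29.2% had no peak in either shWdr82 library, 6.44% were held in both shWdr82 treatments and 1.00% were lost there. Among the 2522 with a score of at least 300 the share gained in shWdr82 was 90.2% (89.0 to 91.3%), and 0 of them were lost there, with an exact upper bound of 0.146%. Of 8957 regions lost in the empty vector, 70.0% were lost in shWdr82, 18.8% had no peak there, 10.8% were held in both treatments and 0.435% were gained. At a score of at least 300 the share lost in both was 79.3%, and at 1000 or more it was 69.8%. Starting from shWdr82, 74.5% of 6618 gained and 63.8% of 9838 lost regions had the same call in the empty vector. At a score of at least 300 these shares were 90% and 79.4%, and at 1000 or more 88.4% and 78.9%.

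The 10 regions that led the gains, ordered by their lower score and then by the smaller of the lengths covered in the 2 LPS libraries, were all at the score ceiling in both vectors and had no untreated H3K27ac peak. The widest spanned chr11:78667136-78711750, with 44615 bp covered after LPS in the empty vector and 43908 bp in shWdr82. It overlapped H3K4me1 in all 4 H3K4me1 libraries and no H3K4me3, RNA polymerase II (Pol II) or H3K36me3 peak in any library, and the nearest H3K4me3 peak lay 22430 bp away. The next, chr10:96834969-96868871, covered 33318 and 32780 bp and had the same set of marks, with H3K4me3 58049 bp away. Both were therefore wide acetylated stretches, far from H3K4me3, over sites with H3K4me1 in the untreated cells.

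Polymerase calls differed among these 10 regions. They come from libraries whose control is a scrambled hairpin and whose titles give 45 min of LPS, so they describe the places at another time. At chr10:18799802-18830635, covered over 30826 and 29528 bp, total Pol II and elongating Pol II, phosphorylated at serine 2 (Ser2P), were called with LPS in both vectors and in neither untreated library. At chr10:95550222-95571026, covered over 20685 and 20805 bp, and at chr1:152042345-152060572, covered over 18145 and 18228 bp, both forms of Pol II were called in the shWdr82 LPS library alone. At chr2:126124182-126153424 and chr16:84696379-84719382 total Pol II and H3K36me3 were called in all 4 of their libraries, before and after LPS. The chr16 region was the one among the 10 that overlapped H3K4me3, in all 4 H3K4me3 libraries, and it covered 23004 and 22826 bp. The other 3 of the 10 were chr1:151690394-151715936, chr3:135320270-135340920 and chr5:136499299-136522089, all with H3K36me3 in all 4 libraries. At these 3 total Pol II went the other way: it was called in untreated libraries of both vectors, of shWdr82 alone and of the control alone, respectively, and in no LPS library. Of the 10 regions, 9 overlapped H3K4me1 in all 4 libraries, chr1:151690394-151715936 being the exception.

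The 10 leading losses were narrower, from 8532 to 15330 bp as merged regions, and likewise at the ceiling in both untreated libraries. The leading one, chr8:85599963-85615292, covered 15201 bp in the untreated empty vector library and 15270 bp in shWdr82, and overlapped H3K4me3 and total Pol II in the untreated control libraries alone. The second, chr7:106816116-106830292, covered 12798 and 14177 bp and had total Pol II in the untreated libraries of both vectors and in neither LPS library. That pattern of total Pol II was shared by chr4:19774532-19787442, chr2:119917696-119929670, chr8:13498614-13509844 and chr12:101177063-101185668. The other 4 did not share it. Total Pol II was called at chr6:99333239-99344843 in both untreated libraries and the shWdr82 LPS library, and at chr13:98346390-98357982 in both shWdr82 libraries. At chr8:131008223-131017969 it was called in the control LPS library alone, and at chr10:16365730-16374261 in none. All 10 overlapped H3K4me1 in all 4 H3K4me1 libraries, with and without LPS.

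Among the kept regions, the most widened were small untreated peaks that became domains at the ceiling. At chr7:53964331-53977953 the peak went from 1315 to 13331 bp in the empty vector and from 1268 to 13604 bp in shWdr82, log2 ratios of 3.34 and 3.42, while its score went from 126 to 3100 and from 118 to 3100. At chr2:102468270-102486206 widths went from 1596 to 17827 bp and from 1724 to 16513 bp. At chr2:129151905-129166806 they went from 1615 to 14902 bp and from 1528 to 14659 bp. The remaining ones were chr18:6939293-6953812, with log2 ratios of 3.67 and 3.14, and chr1:151672888-151689922, with 3.12 and 3.35.

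The last of these ended just before the gained region chr1:151690394-151715936 began. Together they formed a nearly unbroken stretch, where the untreated libraries held peaks of 1957 and 1658 bp at the widened region and the LPS libraries covered 17025 and 16949 bp there and 25152 and 25543 bp in the gained one. A nearly continuous stretch was thus listed as a kept and a gained region, and the classes describe called borders.

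The most narrowed region, chr16:21354959-21362593, went from 5483 to 722 bp in the empty vector and from 7635 to 1048 bp in shWdr82, log2 ratios of -2.92 and -2.86. Its score went from 3100 to 53.3 and from 3100 to 95.9, and total Pol II was called there in the untreated libraries alone. At chr19:47290073-47304975 widths went from 14536 to 2578 bp and from 14903 to 2625 bp, with H3K4me3 in all 4 libraries. The other 3 were chr18:9483899-9495851, chrX:163601838-163614310 and chr3:50429140-50436719, with log2 ratios between -2.41 and -2.14.

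Gained H3K27ac lay away from H3K4me3. An H3K4me3 peak of the same vector after LPS overlapped 6.18% (5.68 to 6.72%) of gained peaks in the empty vector and 6.38% (5.84 to 6.95%) in shWdr82, against 49.0% and 48.6% of kept LPS peaks. For lost peaks, an untreated H3K4me3 peak of the same vector overlapped 18.5% (17.7 to 19.2%) and 19.0% (18.2 to 19.8%), against 49.0% and 49.1% of kept untreated peaks. H3K4me3 was thus rarer at lost than at kept peaks, and rarer still at gained ones. The median distance to the nearest H3K4me3 peak was 24623 bp for gained and 16385 bp for lost peaks in the empty vector, and 24424 and 16536 bp in shWdr82.

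Read the other way, 4.88% of empty vector LPS peaks with H3K4me3 were gained, against 42.8% of those without. In shWdr82 these shares were 4.56% and 39.8%. Among untreated peaks, 14.2% of those with H3K4me3 and 41.3% of those without were lost in the empty vector, and 15.7% and 43.5% in shWdr82.

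Few gained H3K27ac peaks had new H3K4me3, as few had H3K4me3 at all. An H3K4me3 peak in the LPS list and not in the untreated list was found at 0.907% of gained H3K27ac peaks in the empty vector and 0.962% in shWdr82, and at 0.684% and 1.17% of kept LPS peaks. Among peaks with H3K4me3 after LPS, however, it was new at a larger part of gained than of kept ones. The counts were 76 of 518 gained and 141 of 10091 kept peaks in the empty vector. In shWdr82 they were 73 of 484 and 245 of 10139. Counted from H3K4me3, 91 of the 1136 (8.01%) H3K4me3 peaks gained in the empty vector overlapped a gained H3K27ac peak, against 2.64% (2.40 to 2.89%) of the kept H3K4me3 peaks. In shWdr82 these shares were 5.31% (4.22 to 6.57%) of 1489 and 2.33% (2.11 to 2.56%). H3K4me3 peaks lost with LPS also overlapped gained H3K27ac peaks more often than kept H3K4me3 peaks did. Their shares were 4.85% (3.97 to 5.86%) in the empty vector and 3.54% (2.71 to 4.55%) in shWdr82. Of gained H3K27ac peaks, 1.19% and 0.725% had H3K4me3 in the untreated list alone. Lost H3K27ac peaks overlapped H3K4me3 in both treatments in 16.4% and 17.8%, and in the untreated list alone in 2.08% and 1.17%. Of lost H3K27ac peaks with untreated H3K4me3, most therefore still had an H3K4me3 peak after LPS. The share was slightly below that over all places. Among merged regions with untreated H3K4me3, 89.8% of those lost in both vectors had it after LPS in the empty vector, against 92.6% of all. In shWdr82 these shares were 93.7% and 94.9%.

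The merged regions gave the same order, also at matched widths. Among regions of 2000 to 5000 bp, an H3K4me3 peak of any library overlapped 8.56% of those gained in both vectors, 16.2% of those lost in both and 61.9% of those in all 4. Under 2000 bp the shares were 11.2%, 29.6% and 77.6%, and from 5000 bp up 8.96%, 15.3% and 51.4%. More than 2500 bp from any H3K4me3 peak lay 85.3% of gained, 73.1% of lost and 38.0% of common regions.

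Gained regions lay next to gained regions, and lost next to lost, more often than their shares of all regions. The nearest region was still most often one in all 4 libraries, for 36.6% of gained and 40.2% of lost regions. Such regions were 44.0% of all. The nearest H3K27ac region was itself gained in both for 27.7% (26.5 to 29.0%) of regions gained in both, where gained regions were 12.4% of all. It was lost in both for 27.9% (26.8 to 29.0%) of lost regions, where lost regions were 15.8% of all. A lost region was nearest to 5.35% of gained ones, and a gained region was nearest to 3.94% of lost ones. Like neighbours were thus more common, and opposite neighbours less common, than their shares of all regions. Regions nearest to each other both entered the count, so these intervals can understate counting error.

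The association faded with distance. Between consecutive regions under 1000 bp apart, 37.7% of the neighbours of gained regions were gained, against 15.5% of the neighbours of any region. From 5 to 20 kb apart the shares were 24.1% and 10.9%, from 20 to 50 kb 18% and 12.3%, and over 200 kb 16.2% and 15.2%. For lost neighbours of lost regions the shares were 30.4% against 13.1% under 1000 bp, 27.8% against 16.7% from 5 to 20 kb and 17.4% against 16.8% over 200 kb. Lost neighbours of gained regions went the other way, from 0.776% under 1000 bp through 6.97% at 5 to 20 kb to 19.5% over 200 kb. Close pairs can be 1 domain that the caller divided, and with neighbours under 5000 bp apart set aside the share was 23.8% for gained and 27.0% for lost regions.

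**Figure D4:**
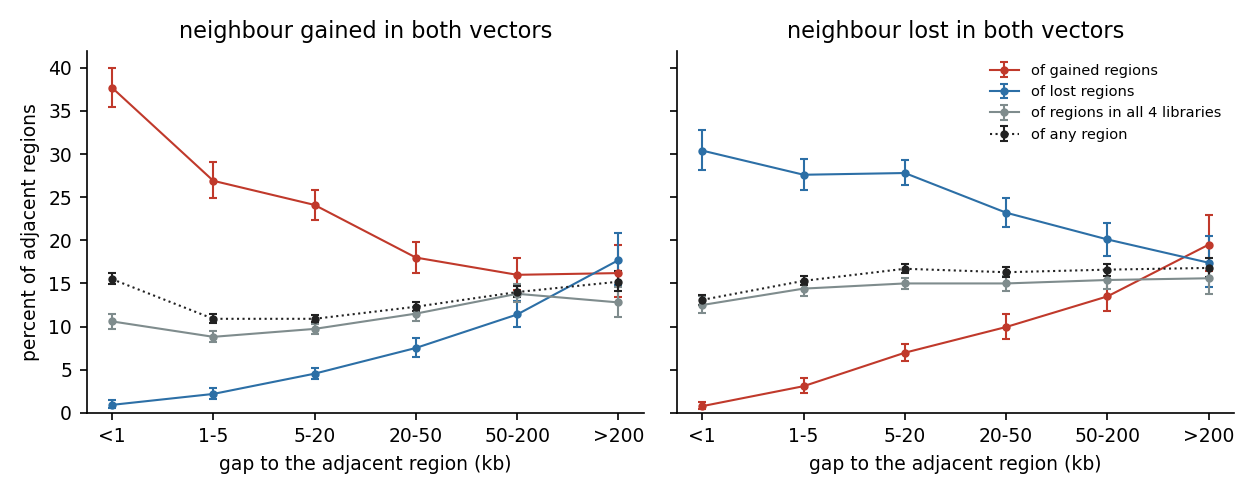
Percent of adjacent H3K27ac regions that are gained in both vectors (left) or lost in both (right), by the gap to the adjacent region in kb, for gained, lost and common regions and for any region. Bars are Clopper-Pearson 95% intervals. Each adjacent pair was counted from both ends (11620 entries from 5810 pairs under 1 kb), so the entries are not independent and the bars can understate counting error. Like neighbours are most frequent at short gaps (37.7% gained, 30.4% lost under 1 kb), opposite neighbours least, and the lines come together over 200 kb.

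Runs of consecutive regions with the same call were short as a rule. Of the gained regions 58.4% stood alone, and 241 runs of 3 or more took in 830 regions (16.8%). Of the lost regions 56.5% stood alone, and 328 runs of 3 or more took in 1138 (18.1%). The longest gained run was 8 regions at chr18:65455251-65526337, which covered 61504 of 71087 bp with gaps from 61 to 4853 bp, and none of its regions overlapped H3K4me3 or untreated H3K4me1 of the scrambled control. It was nearly continuous. The run of 7 at chr9:104219294-104291888 covered 25157 of 72595 bp. A further run of 7 lay at chr5:30195867-30279840, and runs of 6 lay at chr13:15982616-16018522 and chr1:175468223-175533210, the last covering 11889 of 64988 bp.

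The longest lost runs held up to 9 regions. The run of 9 at chr2:166131598-166260200 covered 33472 of 128603 bp, and 8 of its 9 regions overlapped untreated H3K4me1 of the scrambled control. The run of 9 at chr12:116831149-117151413 covered 17812 of 320265 bp, with untreated H3K4me1 at all 9. The others were 8 regions at chr1:184722396-184892573, 7 at chr13:52111293-52181526 and 7 at chr7:98863466-99570276. Total Pol II of the scrambled control was called untreated at 1, 2, 3, 1 and 0 regions of these 5 runs and with LPS at 0 regions of each.

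On the scale of 1 Mb, 2101 windows held an H3K27ac region. Gained regions were missing from 587 of them and lost regions from 530, and 50% of gained regions lay in 342 windows (16.3%), 50% of lost regions in 371 (17.7%). For regions in all 4 libraries, 50% lay in 441 windows (21.0%). The variance over the mean of the count per window gave the other order. It was 3.14 for gained, 3.36 for lost and 6.27 for regions in all 4 libraries. Both measures also follow the size of a set, so they cannot rank how concentrated the classes were. At least 5 gained regions lay in 337 of the 2101 windows, and at least 5 lost regions in 543. Both were true of 92 windows, so large neighbourhoods could hold gained and lost regions. Whether 92 differs from the number that these counts alone would give was not tested. At least 5 gained and no lost regions lay in 62 windows, and at least 5 lost and no gained regions in 97. By chromosome, the share of regions gained in both ran from 9.49% on chromosome 7 to 16.3% on chromosome 16, and the share lost in both from 13.5% on chromosome 19 to 18.8% on the X.

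The other antibodies were read at these regions from their own lists. H3K4me1, H3K36me3, total Pol II and Ser2P Pol II have a scrambled hairpin as control. Their titles give 45 min of LPS, whereas the protocol text gives 4 h. They describe the same places at what the titles give as an earlier time, so their values are given beside the H3K27ac classes and the sizes of the LPS effects were not compared.

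With widths not matched, regions that lost H3K27ac carried the enhancer mark nearly as often as common ones, and regions that gained it much less often. In untreated control cells H3K4me1 overlapped 40.3% (38.9 to 41.7%) of gained, 84.5% (83.6 to 85.4%) of lost and 90.2% (89.7 to 90.6%) of common regions, against 74.8% of all regions. With LPS these shares were 44.1%, 85.5% and 91.1%. In shWdr82 cells the untreated shares were 39.7%, 80.2% and 83.7%, and those with LPS 43.8%, 80.7% and 85.1%. Over all regions the share was 74.8% untreated and 76.3% with LPS in control cells, and 70.6% and 72.4% in shWdr82. Of lost regions with H3K4me1 untreated, 95.4% had it with LPS in control cells, about the same as the 95.2% over all regions, and 93.6% and 93.5% in shWdr82. Of regions without it untreated, 13.8% of the gained ones had it with LPS in control cells, against 20.2% over all regions and 31.3% of lost ones, and in shWdr82 15.3%, 21.6% and 28.5%. Among regions without untreated H3K4me1, new H3K4me1 was thus called less often at gained regions than over all regions, in these 45 min libraries. Counted over every region of a class, the order turned. New H3K4me1 was then called at 406 of 4933 gained and 2024 of all 39645 regions in control cells. In shWdr82 these counts were 456 and 2515.

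The gained regions varied among themselves in this respect. H3K4me1 in untreated control cells overlapped 31.0% (28.5 to 33.5%) of gained regions under 2000 bp, 41.4% from 2000 to 5000 bp, 50.8% from 5000 to 10000 bp and 64.3% (55.4 to 72.6%) of those of 10000 bp or more. Wider regions have more room for an overlap. Lost regions under 2000 bp, of about the same median width as gained ones (1531 against 1528 bp), had it in 78.4%. Common regions under 2000 bp had it in 71.0%. From 2000 to 5000 bp it was 88.9% at both lost and common regions, and from 5000 to 10000 bp 91.4% and 96.0%. In untreated shWdr82 cells the lost and common shares were 72.2% and 57.5%, 85.6% and 80.1%, and 92.3% and 93.6% in these bins. The order of lost and common regions thus depended on width. By score, H3K4me1 in untreated control cells overlapped 35.0% of gained regions whose lower score was under 100 and 52.8% of those at 1000 or more. The median widths of these sets were 1875 and 6013 bp, so this split does not separate score from width.

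Total Pol II was rare at gained regions and was called less often with LPS at lost ones. In control cells its share at lost regions was 28.7% (27.6 to 29.8%) untreated and 12.9% (12.1 to 13.8%) with LPS, and in shWdr82 cells 26.2% and 14.3%. At gained regions it was 9.73% and 11.3% in control cells and 8.92% and 13.5% in shWdr82. The LPS lists of total Pol II were shorter, 21891 against 32385 peaks in control and 22307 against 28497 in shWdr82, and over all regions the share was 31.4% against 40.7% and 33.1% against 38.1%. Among regions with an untreated Pol II peak, 35.2% of the lost, 56.9% of the gained and 73.5% of the common ones still had one with LPS in control cells, and 39.0%, 54.8% and 75.8% in shWdr82. More than 2500 bp from H3K4me3 these shares were 24.2%, 57.2% and 45% in control, and 28.4%, 54.1% and 46.2% in shWdr82.

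High-scoring lost regions showed a wide gap. Among the 379 with both scores at 1000 or more, total Pol II overlapped 46.4% (41.3 to 51.6%) untreated and 9.76% (6.97 to 13.2%) with LPS in control cells, and 40.4% and 11.6% in shWdr82. Among common regions with all scores at 1000 or more it overlapped 84.6% and 74.2% in control, and 79.0% and 74.6% in shWdr82. Of the 129 gained regions of 10000 bp or more, 10.1% (5.48 to 16.6%) had total Pol II untreated and 18.6% (12.3 to 26.4%) with LPS in control cells, and in shWdr82 9.30% (4.90 to 15.7%) and 27.9% (20.4 to 36.5%). Wide gained domains thus had Pol II called more often with LPS in both vectors, though the control intervals overlap.

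Ser2P was called at few of the regions. At gained regions its share was 4.89% (4.30 to 5.52%) untreated and 6.22% (5.57 to 6.93%) with LPS in control cells, and 4.70% (4.13 to 5.33%) and 9.02% (8.24 to 9.85%) in shWdr82. At lost regions it was 7.03% and 5.98% in control and 7.03% and 7.46% in shWdr82. Over all regions it was 9.40% and 9.28% in control and 8.84% and 11.6% in shWdr82, whose Ser2P LPS peaks covered 60.6 Mb against 44.7 Mb in the control LPS list, so the list moves with this result. H3K36me3, a mark of transcribed gene bodies, was found untreated at 20.7% of gained, 20.9% of lost and 37.4% of common regions in control, and with LPS at 19.6%, 19.3% and 34.8%.

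**Figure D5:**
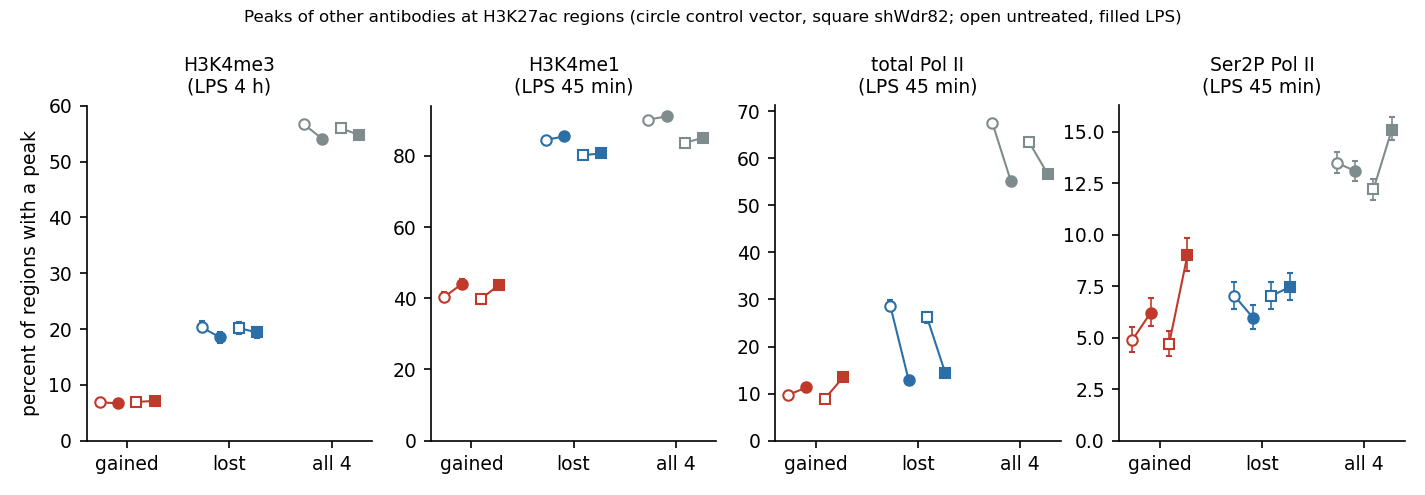
Percent of H3K27ac regions gained in both vectors, lost in both and present in all 4 libraries that overlap a peak of H3K4me3, H3K4me1, total Pol II or Ser2P Pol II. Circles are the control vector and squares shWdr82, open symbols untreated and filled ones with LPS, bars are exact 95% intervals, and each panel has its own axis from 0. H3K4me1 stays near 80 to 86% at lost regions, and total Pol II at lost regions is lower with LPS (28.7 to 12.9% in control, 26.2 to 14.3% in shWdr82).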

How the data were processed

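Each library was deposited as 1 list of peaks with chromosome, start, end and a score. Bowtie 0.12.7, MACS 1.4 and the mm9 build are named in the submitters' processing notes, which give no settings. The score in each deposited list is the authors' value from the peak caller and was used to rank and filter peaks. Positions in the deposited lists, another kind of value set by the authors' calling, were read library by library, because numbering and borders differ from list to list, and are printed from 1. Depth is unknown.

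Peaks were compared by an overlap of at least 1 bp with Python 3.11.15, numpy 2.4.6, pandas 2.3.3 and scipy 1.17.1, and the steps were tested on simulated intervals. Merged regions join overlapping peaks of the 4 H3K27ac libraries. The regions named are the first 10 gained and first 10 lost in both vectors by lower score, then the smaller covered length and position, the 5 most widened and 5 most narrowed, and the 5 longest runs of each kind. The comparison and this rule were set with earlier results of these data known. Gene lists and marker genes were not analysed here, since no annotation of mm9 was at hand. No test was run, as each group held 1 library, and the vectors are given side by side.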

Additional observations from a re-analysis of the deposited data

Results flagged for a closer look

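The effect of LPS had opposite signs in the 2 vectors for a pair of measures, and with 1 library per group these differences were not tested. The length covered by H3K27ac peaks was higher by 16.7% with LPS in the empty vector and changed by -2.20% in shWdr82. The median log2 ratio of LPS to untreated width of kept peaks was 0.09 in the empty vector and -0.04 in shWdr82. By untreated width, the signs differed from 2000 to 5000 bp (0.04 and -0.06), and were the same in both vectors under 2000 bp (0.28 and 0.14) and from 5000 bp up (-0.07 and -0.22). The untreated shWdr82 list covered 106 Mb against 98.4 Mb for the untreated empty vector, and its LPS list 104 Mb against 115 Mb, so both treatments moved with this difference.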

How the results depend on the processing

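No single result changed sign under any alternative, and keeping autosomes alone, or asking that at least 50% of the smaller peak be shared, moved none of the results they were run on. Counts of regions gained or lost in both vectors stayed within 1.5 times of 4933 (3954 to 5452) and 6272 (4761 to 6051). With peaks of a score of at least 100 alone, gained peaks were 27.1% (empty vector) and 24.4% (shWdr82) and lost ones 31.4% and 33.9%, H3K4me3 overlapped 7.88% and 7.04% of gained and 21.5% and 22.0% of lost peaks, 65.9% of empty vector gains were shared, like neighbours were 29.1% (gained) and 30.4% (lost), and median width ratios 0.10 and -0.02. With lists cut to an equal number of top-scoring peaks, gained peaks were 31.4% and 29.0% and lost ones 26.4% and 28.2%, so that gained shares exceeded lost ones (and 5452 gained exceeded 4761 lost regions), H3K4me3 overlapped 7.72% of empty vector gains, 65.4% of gains were shared, like neighbours were 29.9% and 26.4%, and the shWdr82 width ratio was -0.04. With peaks under 1000 bp apart joined, gained peaks were 24.8% and 23.7% and lost ones 29.0% and 30.7%, H3K4me3 overlapped 7.13% and 7.45% of gained and 20.1% and 20.8% of lost peaks, 67.0% of gains were shared, gained neighbours were 23.6%, and the empty vector width ratio was 0.07. With H3K4me3 within 2500 bp counted, 11% and 11.3% of gained and 24% and 23.3% of lost peaks had it. Gained neighbours at least 5000 bp away were 23.8%. Ratios of summed widths were 0.18 and -0.01 (log2). The cut to an equal number of peaks fell mainly on the untreated lists. The cause of these shifts was not tested. The labels give no replicate numbers. LPS and untreated libraries were set side by side within each vector, and no fit with the vector as a block was run. Depth is unknown, so a weak region missing from a list may hold signal below the caller's threshold.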
